A study of Macaca mulatta with 4 samples.

Results

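Purkinje cells of the fetal cerebellum were taken as the nuclei in which at least 3 of 7 genes, PPP1R17, CASR, CALB1, CA8, SKOR2, FOXP2 and PCP2, had a count, with 500 or more genes detected and no count of PAX2, a gene of immature interneurons. This rule found 309 of 32587 barcodes, where a barcode stands for 1 captured nucleus. The members were thus chosen by the measured counts of these 8 genes, and the levels of the 7, called the rule genes, are given as a description. Cerebellar hemispheres of 4 rhesus macaque fetuses were measured by single-nucleus RNA sequencing, 2 from pregnancies with no intervention (Control) and 2 exposed to 1 mg of intra-amniotic lipopolysaccharide, the bacterial cell wall product LPS, 5 days before delivery. Each group held 1 female and 1 male fetus, and no genetic change was made in any of them. Control fetuses were at gestational day 130, the LPS female at day 131 and the LPS male at day 133, so a later gestational age cannot be told apart from exposure.

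Purkinje cells are the large inhibitory neurons whose axons are the sole output of the cerebellar cortex. They receive parallel fibres from granule cells and a climbing fibre from the inferior olive, and they turn synaptic glutamate into calcium release through phospholipase C and the inositol trisphosphate receptor ITPR1. In the fetus they also release Sonic hedgehog, which drives division of granule cell precursors above them. The question put to these data was which genes these nuclei carry and whether their number or their transcripts differed after LPS.

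The 4 libraries held 34282015 to 61665690 unique molecular identifiers (UMIs), 6905 to 9256 barcodes with 500 or more genes, and medians of 1882 to 4506 UMIs per barcode. Both female libraries were deeper per barcode than both male ones, and 41 genes with at least 100 UMIs in each male library were listed at 0 in both female libraries, against 13 genes in the reverse direction and 0 for the other ways of pairing the libraries. The 41 include the Y-linked DDX3Y, EIF1AY and RPS4Y2, and others of the 41 are EIF4G1, PSMD2 and RPS18. Differences between the sexes therefore cannot be told apart from this difference between the files. No member barcode was shared between libraries, and each pair of libraries shared 16 to 22 barcodes in all.

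The 309 members did not all look like Purkinje cells. ITPR1, which the rule did not use, was abundant in some members and had no UMI in others. Of the 111 members with 4 or more rule genes, 101 had 10 or more ITPR1 UMIs and the median nucleus had 146. Of the 198 members with exactly 3 rule genes, 9 had 10 or more ITPR1 UMIs and 143 had 0. Of these 9, 7 were in the Control male, where 12 members had exactly 3 rule genes.

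**Figure D1:**
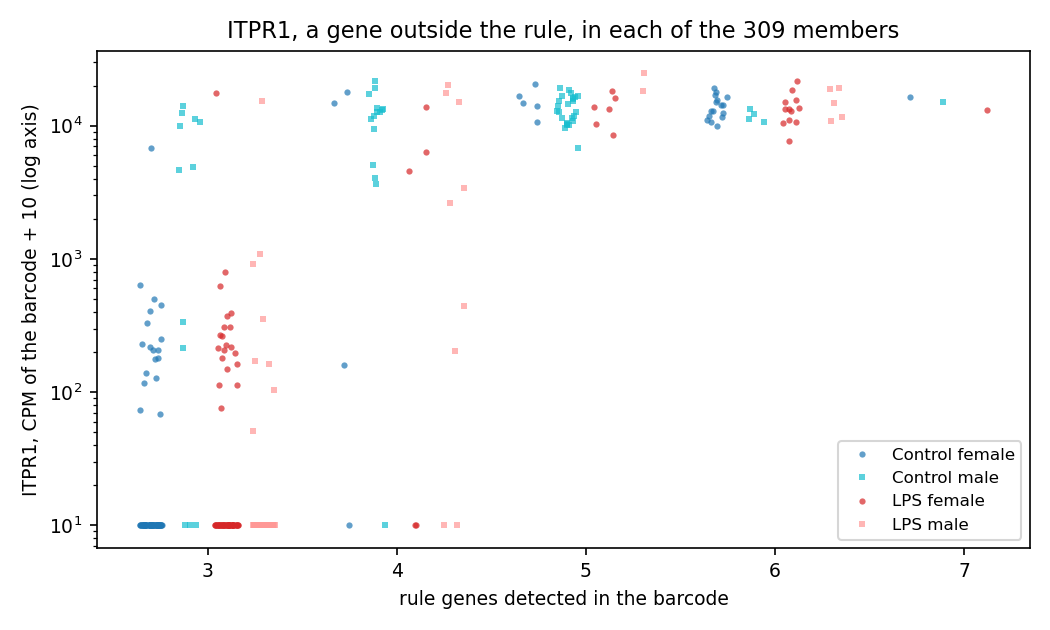
ITPR1 level of each of the 309 members (vertical axis, CPM of the barcode plus 10, log scale) against the number of rule genes detected (horizontal axis), with 1 point per barcode and a colour per fetus. Most barcodes with 3 rule genes sit at the bottom with 0 ITPR1 UMIs, and most with 4 or more sit near the median of 13128.

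The summed level of ITPR1 in the members with 4 or more rule genes was 13960 CPM (UMIs divided by the sum of all UMIs of the set, on the usual counts-per-million scale) in the Control female, 13006 in the Control male, 13157 in the LPS female and 12418 in the LPS male. In all barcodes outside the rule it was 62.6, 86.6, 39.6 and 101 CPM in the same order. In the members with 3 rule genes it was 80.6, 6588, 810 and 113 CPM, so that only the Control male stood near the first group. Just outside the rule, the 889, 168, 759 and 422 barcodes with 2 rule genes had the ITPR1 level of the remaining barcodes (49.6 CPM in the Control female and 76.3 CPM in the Control male, for example). The label was therefore borne out by ITPR1 for the members with 4 or more rule genes, called Purkinje-like nuclei here, and not for most members with 3, called 3-marker barcodes.

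The 3-marker barcodes had higher summed levels of granule cell and astroglial markers than the Purkinje-like nuclei in each fetus. Granule cells are the most abundant neuron of the tissue. Of the 198, 156 (78.8%) had 3 or more of 11 granule cell markers detected, against 35 of the 111 Purkinje-like nuclei (31.5%), which were deeper, and 73.97% of all barcodes outside the rule. At least 1 of GAD1, GAD2 and SLC32A1, the genes of inhibitory transmitter synthesis and loading, was detected in 11.6% of 3-marker barcodes and 82.9% of Purkinje-like nuclei, with 10.2% outside the rule. In the Control male 4 of 12 3-marker barcodes were granule-like by this count. The 11 granule cell markers summed to 2469, 2300, 2704 and 4702 CPM in the 3-marker barcodes of the Control female, Control male, LPS female and LPS male, below the 3806, 5590, 3431 and 5996 CPM outside the rule in each fetus. The 10 markers of astroglia and Bergmann glia summed to 2709, 536, 2203 and 1984 CPM, against 2414, 2133, 2077 and 2520 CPM outside the rule, so the Control male stood apart there too. The commonest 3 genes were PPP1R17, CALB1 and FOXP2, found together in 82 of the 198. FOXP2, a transcription factor and rule gene, also had a count in 41.5% of granule-like barcodes. Barcodes of at most 100 UMIs, taken as free RNA, held FOXP2 at 345, 246, 313 and 303 CPM in the Control female, Control male, LPS female and LPS male, against 445, 225, 487 and 254 CPM in the barcodes outside the rule, so at least in the males its counts outside the rule did not exceed the level of free RNA. Scrublet, a caller of barcodes holding more than 1 nucleus, marked 27 of the 198 3-marker barcodes (13.6%) and 8 of the 111 Purkinje-like nuclei (7.21%). It marked 7.08% of the barcodes outside the rule, so the Purkinje-like nuclei stood near that share and the 3-marker barcodes above it. Results below are given for all 309 members and for the 111 Purkinje-like nuclei.

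Purkinje-like nuclei were rare and rich in RNA. There were 26 in the Control female, 45 in the Control male, 24 in the LPS female and 16 in the LPS male. Their median UMI count was 24203, 7160, 17621 and 8883 in that order, which was 5.37, 3.80, 4.34 and 3.85 times the median of the whole library. Deeper barcodes pass a rule of detected genes more easily, so these ratios are a description.

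Across genes, 98 of 7264 genes were at least 4-fold higher in the 309 members than in the other barcodes of the same library in each of the 4 fetuses (1.35%), and 2 were at least 4-fold lower (0.0275%). In the Purkinje-like nuclei 200 of 7073 genes were higher by that measure (2.83%) and 138 lower (1.95%). In the 3-marker barcodes 3 of 7394 were higher (0.0406%) and 1 was lower (0.0135%). The rule genes enter these counts, as 4 of the 98, 4 of the 200 and all 3 in the 3-marker barcodes. Among the lower genes, 1 of the 2, 2 of the 138 and the last 1 were PAX2 interneuron markers. That list holds PAX2, which the rule held at 0. Genes entered these counts with a mean of 20 CPM or more over both sums, and the counts carry no test because the rule chose the nuclei on the same matrices. The LPS male decided part of the second count: without it 263 genes were higher and 400 lower in the Purkinje-like nuclei, and without it 169 were higher and 20 lower in the 309 members.

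**Figure D2:**
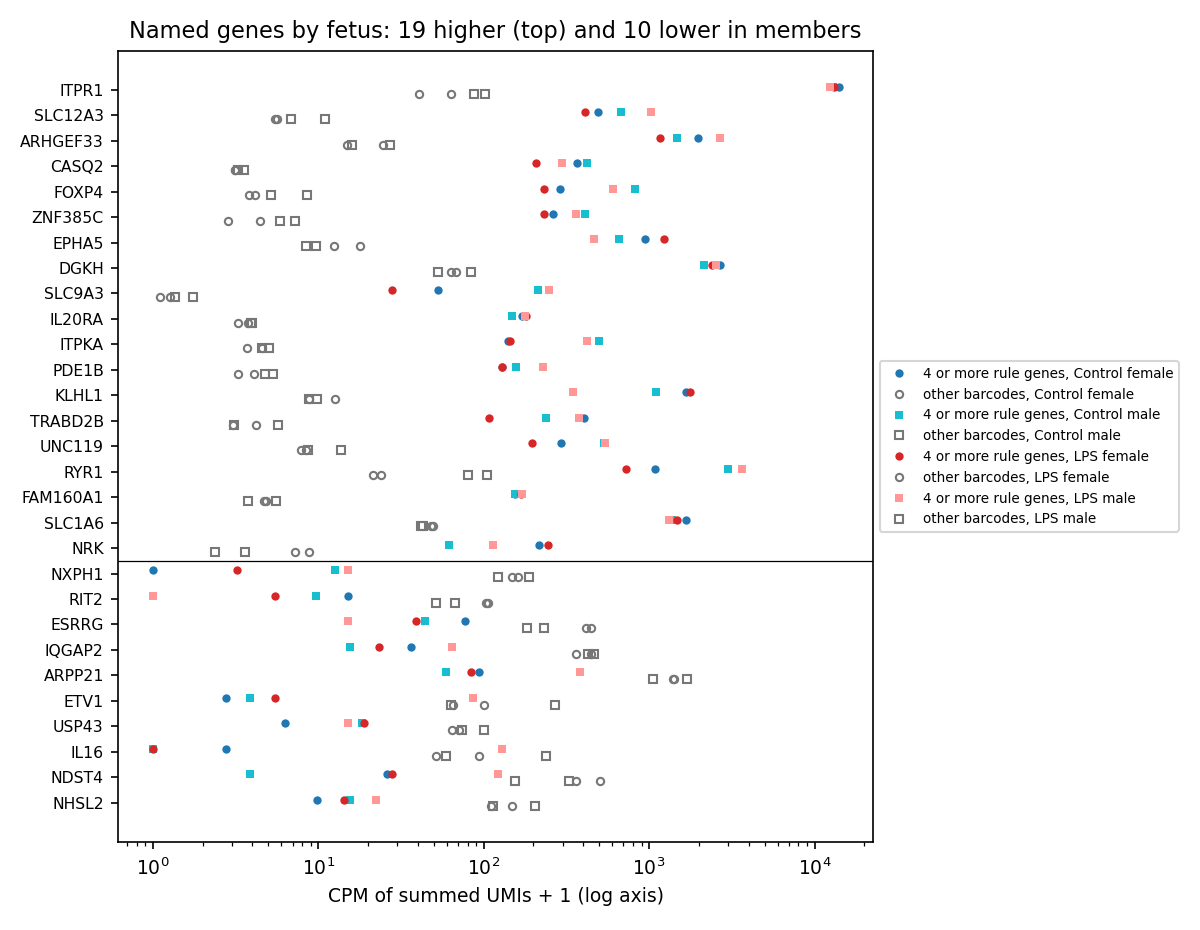
Summed level (CPM plus 1, log axis) of 19 named genes that were higher in members (above the line) and the 10 that were lower (below it), with filled points for Purkinje-like nuclei and open grey points for the other barcodes of each fetus, circles for females and squares for males. For each of the 19 upper genes the 4 filled points lie to the right of the 4 open ones.

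Among the genes that stood furthest above the other barcodes was RYR1, the calcium release channel of the endoplasmic reticulum, at 1084, 2986, 724 and 3650 CPM in Purkinje-like nuclei of the Control female, Control male, LPS female and LPS male, with 23.1, 79.3, 20.3 and 103 CPM in the other barcodes. Both groups of barcodes were higher in the male libraries. CASQ2, calsequestrin, which binds calcium inside that store, was at 365, 420, 205 and 298 CPM against 2.13 to 2.59 CPM in the other barcodes. ITPKA, the kinase that removes inositol trisphosphate, was at 139, 498, 143 and 418 CPM against 2.74 to 4.06 CPM.

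SLC1A6, the glutamate transporter EAAT4 that clears synaptic glutamate around Purkinje spines, had the smallest spread of the difference among these genes. It was at 1670, 1377, 1465 and 1325 CPM against 41.1 to 48.2 CPM, a log2 difference of 5.00 ± 0.09 (SD, n = 4 fetuses). ITPR1 differed by 7.57 ± 0.62 and ARHGEF33 by 6.44 ± 0.17 on the same scale. SLC12A3, a sodium and chloride cotransporter best known from the kidney, was at 491, 677, 406 and 1028 CPM against 4.44 to 9.99 CPM. The ephrin receptor EPHA5 was at 942, 657, 1235 and 461 CPM against 7.40 to 16.8 CPM, and the diacylglycerol kinase DGKH at 2698, 2161, 2416 and 2523 CPM against 51.8 to 82.9 CPM. Other named genes were FOXP4, ZNF385C, SLC9A3, IL20RA, PDE1B, KLHL1, TRABD2B, UNC119, FAM160A1 and NRK, with smallest log2 differences in Purkinje-like nuclei over the 4 fetuses of 4.63 (NRK) to 5.79 (FOXP4).

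Of the 10 genes lowest in the members, NXPH1, a neurexin ligand listed among the PAX2 interneuron markers, was at 0, 11.6, 2.23 and 14.2 CPM in Purkinje-like nuclei against 148, 186, 160 and 122 CPM in the other barcodes. ARPP21 was at 92.6, 57.9, 82.6 and 383 CPM against 1056 to 1704 CPM. IQGAP2 was at 35.6, 14.5, 22.3 and 63.8 CPM against 358 to 466 CPM. ETV1 was at 1.78, 2.89, 4.47 and 85.1 CPM against 62.9 to 271 CPM. The LPS male was the highest of the 4 for ARPP21, IQGAP2 and ETV1, and for IL16 and NDST4 (128 and 120 CPM there against 0 to 26.8 CPM in the other 3). NHSL2 was also highest there, at 21.3 CPM against 8.90 to 14.5 CPM in the other 3. RIT2, ESRRG and USP43 completed the list, and the LPS male was not the highest for any of these 3.

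The LPS male also carried more granule cell RNA in its Purkinje-like nuclei. The 11 granule cell markers summed to 295, 286, 330 and 2027 CPM, against 3431 to 5996 CPM in the other barcodes, and 1 of the 11 was at 0 in every fetus. Over the Purkinje-like nuclei with 10 or more ITPR1 UMIs, a choice made after seeing the data, the sums were 257, 284, 228 and 711 CPM, so the excess of the LPS male was smaller in the 12 of its 16 nuclei that passed. Of its nuclei with 4 ITPR1 UMIs or fewer, each of which had exactly 4 rule genes, 1 had 20804 UMIs and 8 of the granule markers. The share of free RNA, estimated from markers of glia, vessels and fibroblasts, was 0%, 4.17%, 0% and 8.63% in the Purkinje-like nuclei of the Control female, Control male, LPS female and LPS male. It is the 0.25 quantile of the marker ratios to free RNA, so it is 0% where that part of the markers had no UMI. A value of 0% therefore does not show that free RNA was absent. The same estimate gave 20.2%, 5.85%, 13.3% and 36.3% in the 309 members. There the 3-marker barcodes with astroglial markers enter it, so it cannot be read as free RNA alone. Both estimates were highest in the LPS male. The 10 astroglial markers summed to 215, 408, 214 and 765 CPM, also highest in the LPS male, against 2077 to 2520 CPM. The 7 oligodendrocyte markers in the table summed to 162 to 301 CPM against 449 to 794 CPM. The 5 molecular layer interneuron markers in the table summed to 220 to 744 CPM against 313 to 409 CPM, the 7 microglial markers to 0 to 31.8 CPM against 23.9 to 31.7 CPM, and the 6 endothelial and mural markers to 6.70 to 14.2 CPM against 47.0 to 103 CPM. The 6 Golgi and glycinergic markers summed to 57.0, 26.0, 49.1 and 28.4 CPM against 15.8 to 24.2 CPM. Thus the granule, astroglial, oligodendrocyte and vascular sums were below those of the other barcodes in each fetus, the microglial and molecular layer interneuron sums were not, and the Golgi and glycinergic sums were above them in each fetus. The unipolar brush cell sums, from a list that shares genes with the Purkinje markers, were also above the other barcodes in each fetus. Choroid and ependymal sums were above them in the LPS male only. In the other inhibitory barcodes, those outside the rule with 2 or more of GAD1, GAD2 and SLC32A1, the Golgi and glycinergic markers summed to 106 to 228 CPM. The molecular layer interneuron markers summed to 2040 to 2895 CPM there. Both sums were above those of the Purkinje-like nuclei in each fetus. In the 309 members, which hold the 3-marker barcodes, the granule sums were 1287, 517, 1489 and 3685 CPM. The part of this RNA in the comparisons below was not tested.

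Of 20 Purkinje markers outside the rule, 19 were in the table and 18 could be counted in Purkinje-like nuclei, of which 11 were 4-fold or more higher in each fetus and 0 lower. Their median log2 difference was 3.19, against -0.03 over all 30807 features. In the 309 members it was 2.51 with 8 of 17 higher, and in the 3-marker barcodes 0.51 with 0 of 16 higher. Over all genes counted in Purkinje-like nuclei, 2.83% were higher and 1.95% lower, and these shares stand beside the list counts below. PCP4, a calmodulin regulator, was at 787, 605, 1020 and 617 CPM against 10.1 to 69.5 CPM. BCL11A was at 529, 645, 770 and 383 CPM against 49.6 to 78.3 CPM. PLCB4, a phospholipase C, did not set these nuclei apart, at 428 to 854 CPM against 538 to 636 CPM. LHX1, a lineage factor, had 0 to 11.6 CPM, and LHX5 was not in the table.

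Of 25 genes of the parallel and climbing fibre synapse, 24 could be counted and 6 were 4-fold higher in each fetus. Among them were GRIK1, GRM7, DLG2, SHANK1 and SHANK2. The summed level of the list was above that of the other inhibitory barcodes in the Control female and the LPS male and below it in the others. As a whole the list thus did not set Purkinje-like nuclei apart from them. GRIK1, a kainate receptor subunit, was at 6517, 2946, 5763 and 2963 CPM against 92.8 to 289 CPM. GRIA4, an AMPA receptor subunit, was lower than in the other barcodes but missed 4-fold in the LPS male, and was at 97.9, 153, 210 and 780 CPM against 1721 to 3188 CPM.

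Of 28 genes of calcium release and buffering, 25 could be counted, 11 were 4-fold or more higher in each fetus and 1 was lower, with a median log2 difference of 1.70 over the 28. Among the 11 were ITPR1, RYR1, PLCB3, ATP2A3, PVALB, PCP4, INPP5A, HOMER3 and CAMK2A. The list shares members with the Purkinje markers above. INPP5A, the phosphatase that ends the inositol trisphosphate signal, was at 730, 1056, 266 and 2736 CPM against 46.3 to 137 CPM. ATP2A3, a calcium pump of the endoplasmic reticulum, was at 221, 182, 136 and 503 CPM against 6.17 to 28.4 CPM. The plasma membrane pump ATP2B1 was the 1 lower gene, at 20.3 to 70.9 CPM against 444 to 742 CPM. PVALB, the parvalbumin of mature Purkinje cells, was low at 42.7, 5.79, 17.9 and 149 CPM, and CALB2, calretinin, was at 0 in all 4, which allows up to 3 UMIs in each sum.

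Of 21 transcription factors of the lineage, 18 were in the table, 14 could be counted and 4 were higher in each fetus, namely ESRRB, FOXP4, EBF2 and BCL11A. The median log2 difference of the list was -0.19, and other members lay below the other barcodes in each fetus. MEIS1 was at 71.2, 26.0, 40.2 and 234 CPM against 553 to 981 CPM, TLE4 at 2.89 to 28.4 CPM against 87.5 to 116 CPM, PBX3 at 20.1 to 48.1 CPM against 139 to 416 CPM, ZFHX3 at 14.2 to 37.6 CPM against 70.9 to 114 CPM and FOXP1 at 130 to 248 CPM against 425 to 525 CPM. RORA, on which Purkinje maturation depends, was at 1485, 1204, 1896 and 610 CPM against 305 to 456 CPM, and it missed 4-fold in both males. In the other inhibitory barcodes, those outside the rule with 2 or more of GAD1, GAD2 and SLC32A1, RORA was at 1889, 979, 1450 and 2225 CPM, so it did not set Purkinje-like nuclei apart from them. EBF1 was at 1269 to 4055 CPM against 1292 to 1960 CPM. Of 14 excitability genes in the table, KCNMA1, the large-conductance potassium channel, was the 1 gene of 13 counted that was 4-fold higher in each fetus, at 1899, 2922, 1496 and 2148 CPM against 27.4 to 145 CPM. None of 5 inhibitory transmitter genes did so: GAD1 was at 180, 211, 82.6 and 255 CPM against 51.7 to 69.9 CPM.

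Purkinje-like nuclei were also set beside these other inhibitory barcodes across all genes. Of 6927 genes, 152 were 4-fold or more higher in the Purkinje-like nuclei in each fetus (2.19%) and 113 lower (1.63%), with no test. The higher genes include the rule genes CA8, SKOR2, CALB1 and PCP2. The lower genes include PAX2, which the rule held at 0 in members and which was at 226 to 508 CPM in these barcodes. Barcodes with a PAX2 UMI stayed among the other inhibitory barcodes, so lower values of interneuron genes are not independent of the rule. The examples were chosen after their values were seen. FOXP4, a forkhead transcription factor, was at 287, 816, 230 and 602 CPM in the Control female, Control male, LPS female and LPS male, against 1.47 to 10.6 CPM. ANO1, a calcium-activated chloride channel, was at 495, 692, 239 and 1049 CPM against 4.42 to 14.98 CPM. EPHA5 was at 461 to 1235 CPM against 7.88 to 28.99 CPM.

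Among the genes lower than in the other inhibitory barcodes, TFAP2B, a transcription factor of cerebellar interneurons, had 0 UMIs in the Purkinje-like nuclei of all 4 fetuses against 193 to 283 CPM, and SLC6A5, the glycine transporter of glycinergic neurons, had 0 against 73.3 to 188 CPM, where 0 allows up to 3 UMIs in each sum. NRXN3, a neurexin, was lower but abundant, at 2211, 880, 1637 and 1666 CPM against 13009 to 25847 CPM. ADARB2 was at 14.2, 20.3, 26.8 and 198 CPM against 3577 to 8737 CPM. It was highest in the LPS male.

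SHH, the Sonic hedgehog ligand, was sparse but far above its level in the other barcodes. It had 11, 17, 6 and 2 UMIs in the Control female, Control male, LPS female and LPS male, in 10 of 26, 16 of 45, 5 of 24 and 2 of 16 Purkinje-like nuclei. The levels were 19.6, 49.2, 13.4 and 14.2 CPM, against 0.167 to 0.203 CPM in the other barcodes. Among granule-like barcodes 0.0377% to 0.0909% had an SHH UMI, with medians of 1986 to 4562 UMIs. Both LPS values lay below both Control values, as in 7.42% of the genes tested. Thinned to 2000 UMIs per nucleus the expected share with SHH was 3.59%, 10.6%, 1.75% and 2.62%, so the groups did not overlap there either, but the LPS fetuses rest on 6 and 2 UMIs, and SHH was too low to enter the test. Of 11 genes of hedgehog reception 8 could be counted, with 0 higher and 1 lower. That gene, the repressor GLI3, was at 14.5 to 55.8 CPM against 301 to 622 CPM, and PTCH1, the receptor, was at 42.4 to 106 CPM against 137 to 255 CPM.

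Of 20 other secreted signals, 9 could be counted, and IGF1, insulin-like growth factor 1, was the 1 gene 4-fold higher in each fetus, at 237, 205, 241 and 49.6 CPM against 3.37 to 5.31 CPM, and FGF13 was the 1 lower. Of 22 genes of parasagittal stripes and compartments, 17 could be counted and 7 were higher in each fetus: ALDOC, PLCB3, SLC1A6, EBF2, PDE1C, CNTNAP5 and EPHA5. The 1 lower gene was the cadherin CDH20, at 8.68 to 38.0 CPM against 251 to 407 CPM. ALDOC, the enzyme known as zebrin II, was at 130 and 136 CPM in the females and 339 and 702 CPM in the males, with 11.3 to 26.8 CPM in the other barcodes. EBF2, which marks zebrin-negative cells in other species, was at 190, 113, 87.1 and 248 CPM. Both had a count in Purkinje-like nuclei of every fetus, ALDOC in 89.2% and EBF2 in 50.5% of the 111.

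The rule genes differed in how many nuclei held them. CALB1, calbindin, was found in 99.1% of Purkinje-like nuclei and CA8, which binds ITPR1, in 91.0%, while PPP1R17 was found in 33.3% and CASR in 23.4%. PPP1R17, a phosphatase inhibitor, was found in 19 of 26 nuclei of the Control female (73.1%, 95% exact binomial interval 52.2% to 88.4%), 4 of 45 of the Control male (8.89%, 2.48% to 21.2%), 5 of 24 of the LPS female (20.8%, 7.13% to 42.2%) and 9 of 16 of the LPS male (56.3%, 29.9% to 80.2%). CASR, the calcium-sensing receptor, was found in 1 of 26 (3.85%, 0.0973% to 19.6%), 13 of 45 (28.9%, 16.4% to 44.3%), 12 of 24 (50%, 29.1% to 70.9%) and 0 of 16 (up to 20.6%) in the same order. Thus PPP1R17 was high in the Control female and the LPS male, and CASR in the Control male and the LPS female. These intervals cover counting error only.

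At equal depth the same fetuses formed the higher and the lower pair for each gene, although the LPS male stood above the Control female for PPP1R17. Thinned to 2000 UMIs, the expected share with PPP1R17 was 20.1%, 3.11%, 5.25% and 28.2%, and with CASR 0.248%, 10.3%, 11.0% and 0%, with 1 nucleus left out in each female library. In granule-like barcodes 2.48% to 6.47% had a PPP1R17 UMI and 0.130% to 0.403% a CASR UMI. The PPP1R17 shares of the Control male and the LPS female, at 3.11% and 5.25% thinned, stood near the 2.26% and 3.45% of granule-like barcodes of their own libraries thinned in the same way. Within nuclei, 34 had PPP1R17 only, 23 CASR only, 3 both and 51 neither. By fetus, 1, 1, 1 and 0 nuclei had both. The fetuses differed in each gene, so the pooled counts do not show that these genes mark separate nuclei within a fetus. Both genes chose the nuclei, so this is a description with no test.

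Genes with a like order of the 4 fetuses were looked for after these values were seen. Of 6673 genes with a mean of 20 CPM or more, 7 were 4-fold or more higher in the Control female and the LPS male than in the other fetuses. By the same margin 6 were higher in the other fetuses. The other ways of pairing the fetuses were not counted, so these numbers have no background beside them. PPP1R17 is 1 of the 7 and CASR 1 of the 6, which leaves 6 and 5 genes outside the rule. The first set held PPP1R1B, the dopamine-regulated phosphatase inhibitor DARPP-32, at 48.1, 8.68, 8.93 and 92.1 CPM, the adhesion genes CDH10 at 112, 17.4, 13.4 and 170 CPM and KIRREL3 at 418, 89.7, 33.5 and 1361 CPM. The second held SEMA3D, a secreted semaphorin, at 14.2, 81.0, 71.5 and 0 CPM and PDE11A at 7.12, 46.3, 75.9 and 0 CPM. KIRREL3 was at 2071 to 4267 CPM in the other barcodes, and its highest value was in the LPS male, whose nuclei carried the most granule cell RNA. CDH10 was at 156, 127, 129 and 75.1 CPM in the other barcodes, so its Control female value lay below the other barcodes of its own library. In the same barcodes PDE11A was at 26.6, 13.7, 25.5 and 13.0 CPM, SEMA3D at 6.29 to 22.4 CPM and PPP1R1B at 2.92 to 4.67 CPM. ENSMMUG00000012407, also of the first set, was at 24.6, 1.57, 2.94 and 31.6 CPM there, so its order was not confined to Purkinje-like nuclei. The values of 0 allow up to 3 UMIs in the sum.

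**Figure D3:**
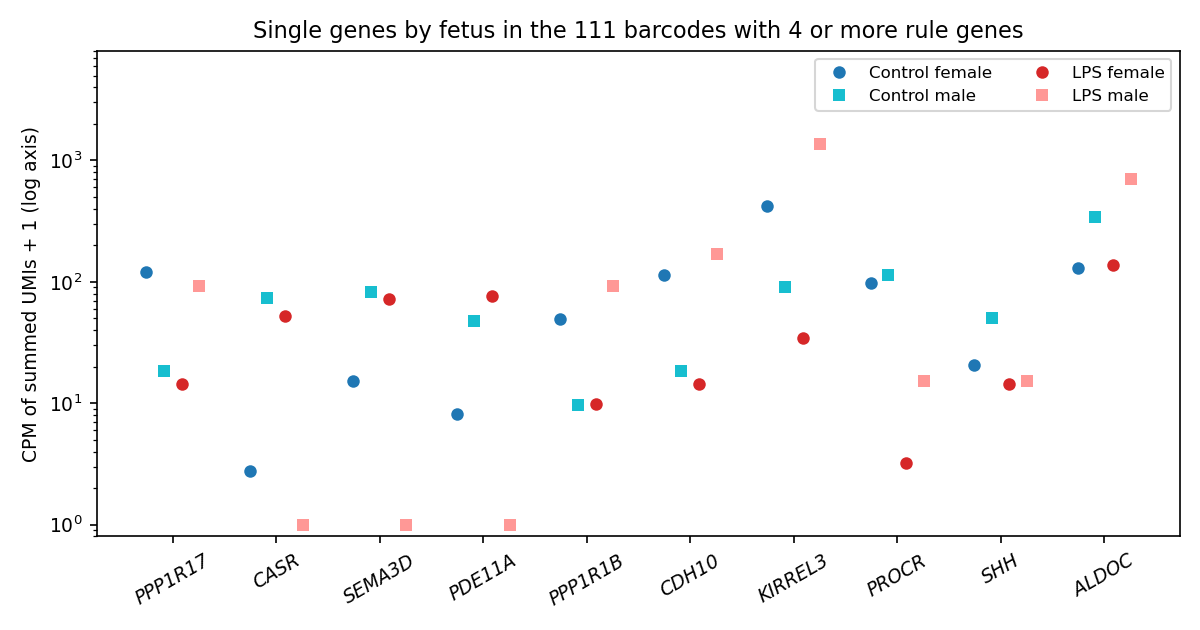
Level of 10 genes (CPM of summed UMIs plus 1, log axis) in the Purkinje-like nuclei of each fetus, with Control in blue, LPS in red, circles for females and squares for males. PPP1R17, PPP1R1B, CDH10 and KIRREL3 are high in the Control female and LPS male, CASR, SEMA3D and PDE11A in the other fetuses, and PROCR is high in both Control fetuses.

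Within each library, the genes that varied most between Purkinje-like nuclei beyond counting error included TENM2, PRKG1, ITPR1, SHANK2, TENM3, UNC5D, KCNIP4 and DLG2. Their variance is the mean over libraries of the variance of Pearson residuals. A value of 1 is the spread of a negative binomial with theta 100, counting error plus a part that grows with the level. The variance ran from 8.17 for TENM2 to 5.63 for DLG2. TENM2 and TENM3, teneurins that bind latrophilins across the synapse, had variances of 3.95 to 11.4 and 1.58 to 9.08 in the 4 libraries. PRKG1, the kinase that acts on nitric oxide signals in long-term depression, had 5.46 to 9.82. The guidance receptor UNC5D had 10.3 in the Control female and 3.26 to 6.29 in the others. ITPR1 had 11.3 in the LPS male, where 12 of 16 nuclei had 10 or more ITPR1 UMIs, and 4.38 to 6.58 in the others.

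The share of Purkinje cells was compared between Control and LPS, which asks whether LPS exposure went with fewer of them. By the rule there were 104 of 9256 barcodes in the Control female (1.12%), 57 of 8621 in the Control male (0.661%), 93 of 6905 in the LPS female (1.35%) and 55 of 7805 in the LPS male (0.705%). The LPS mean was 0.133 percentage points above the Control mean (exact two-sided permutation p = 0.667, where the smallest that 2 fetuses against 2 allow is 0.333). The Purkinje-like nuclei were 0.281%, 0.522%, 0.348% and 0.205% of barcodes in that order, and their LPS mean was 0.125 points below the Control mean (exact permutation p = 0.667). That difference was -0.00461 points without the Control male, -0.0539 without the LPS male, -0.196 without the LPS female and -0.246 without the Control female. Neither difference exceeded the spread between fetuses of a group, and the direction turned with the number of rule genes required. By the rule the share was 0.223 points higher in the LPS female than the Control female and 0.0435 points higher in the LPS male than the Control male. The share of Purkinje-like nuclei was 0.0667 points higher in the LPS female than the Control female and 0.317 points lower in the LPS male than the Control male. Leaving out the Control male or the LPS female turned the difference by the rule to -0.0978 or -0.188 points.

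**Figure D4:**
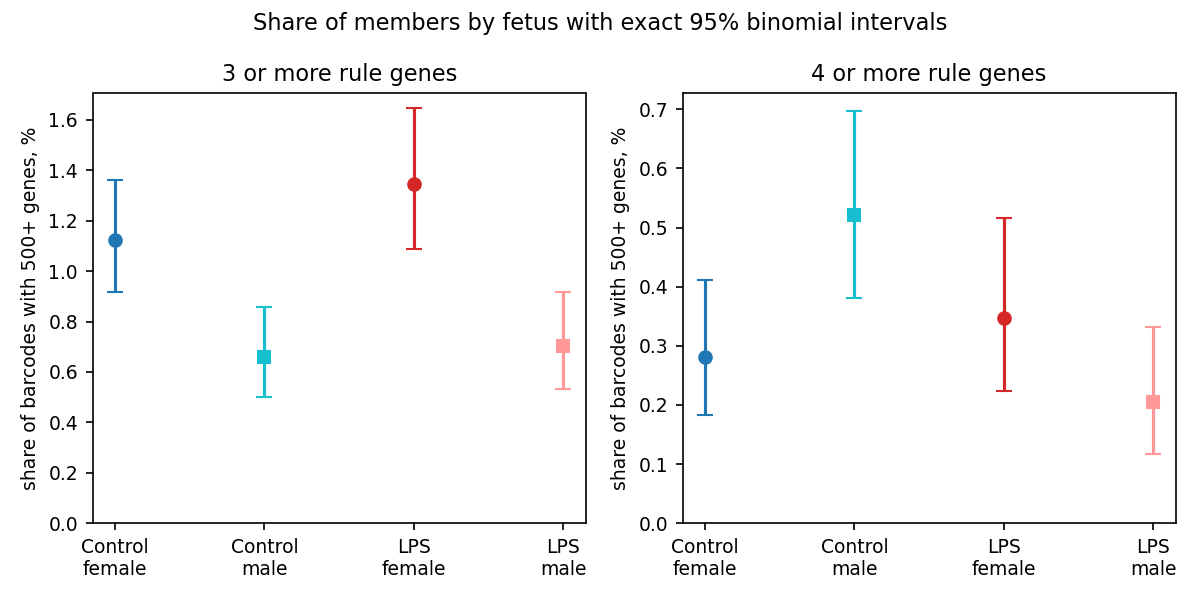
Share of barcodes (percent, with exact 95% binomial intervals for counting error only) that were members by the rule (left) and Purkinje-like nuclei (right) in each fetus. On the left the females are the higher pair, and on the right the Control male is highest and the LPS male lowest.

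Counting 10 or more ITPR1 UMIs in a member by the rule gave 0.259%, 0.592%, 0.319% and 0.167%, in the order of the 4-gene shares. Thinning each barcode to 1000 UMIs, which left out 389, 780, 165 and 1788 shallower ones, left 17, 21, 15 and 9 members by the rule (0.192%, 0.268%, 0.223% and 0.150%). With 4 or more rule genes it left 4, 6, 1 and 0 barcodes (0.0451%, 0.0765%, 0.0148% and 0%). There both LPS values lay below both Control values, on few barcodes. The difference was -0.0534 points (exact permutation p = 0.333, the smallest the design allows). The median UMI count of the 309 members was 5994 and 6501 in Control and 5298 and 4488 in LPS, a difference of -1355 (exact permutation p = 0.333, the smallest the design allows). Among Purkinje-like nuclei the groups overlapped.

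No gene passed the test between LPS and Control. With UMIs summed per fetus, edgeR's quasi-likelihood test called 0 of 8317 genes in the 309 members and 0 of 6237 in the Purkinje-like nuclei (0% each; a call needed a Benjamini-Hochberg p below 0.1 and a log2 change of more than 0.25 either way). At an unadjusted p under 0.05 there were 51 genes (0.613%) and 56 genes (0.898%), and DESeq2 called 0 in both with 61 and 39 genes at that level. Evenly spread p-values would put a fraction of 0.05 of the genes there, so the edgeR fit was conservative. With sex as a block there were 117 and 93 genes at that level and still no call. Each group pairs a female with a male library, so its spread includes the difference between those files. The lack of calls therefore does not show that no gene changed. The calls rested on which libraries entered: without the Control female edgeR called 366 genes in the 309 members, and without the Control male 20. In the Purkinje-like nuclei it called 2 and 4 without these, 24 without the LPS female and 8 without the LPS male. The called genes include Y-linked or file-dependent ones, USP9Y and PSMD2 without the Control male and without the LPS male in Purkinje-like nuclei, and DDX3Y and MFSD10 without the Control male in the 309 members. Each such fit leaves 1 library in a group, with the sexes out of balance, and the lone library is assumed to vary like the others.

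PROCR, the endothelial protein C receptor, had the smallest p in both fits. In Purkinje-like nuclei it had 54 UMIs in the Control female, 39 in the Control male, 1 in the LPS female and 2 in the LPS male. A PROCR UMI was found in 19 of 26 and 18 of 45 Control nuclei and in 1 of 24 and 1 of 16 LPS nuclei. The levels were 96.1, 113, 2.23 and 14.2 CPM, with 3.75, 3.55, 4.57 and 2.59 CPM in the other barcodes. The log2 fold change was -4.17 with an SE of 0.81 and did not pass (edgeR adjusted p = 1.00). Thinned to 2000 UMIs the expected share was 16.7% and 18.9% in Control and 0.354% and 2.27% in LPS, with 0.262% to 0.707% in granule-like barcodes. With no filter on low counts and all 4 libraries PROCR passed in both sets (edgeR adjusted p = 0.0123 in Purkinje-like nuclei and 0.0138 in the 309 members). The log2 fold change in Purkinje-like nuclei moved with the libraries. It was -5.37 without the LPS male, -4.16 without the Control male, -4.10 without the Control female and -2.955 without the LPS female. In the 309 members the log2 fold change was -3.50 with an SE of 0.68 (edgeR adjusted p = 1.00). With 1 library left out it ran from -4.03 without the LPS female to -2.95 without the Control male. Of all genes tested, 7.42% had both LPS fetuses below both Control fetuses, as PROCR did, and 11.4% had them above. In the 309 members these shares were 7.79% and 15.1%.

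The other genes with the smallest p in Purkinje-like nuclei did not pass either (edgeR adjusted p = 1.00 for each). LUZP2 had 17, 3, 72 and 20 UMIs in the Control female, Control male, LPS female and LPS male, a log2 fold change of 2.78 with an SE of 0.67. SUCLG2, a subunit of a citric acid cycle enzyme, had 1, 1, 17 and 6 UMIs. GPC5, a glypican, had 19, 13, 95 and 13 UMIs, GRM8 had 7, 7, 15 and 26, and ZNF704 had 21, 14, 52 and 22. Among the lower ones SV2C, a synaptic vesicle protein, had 70, 36, 15 and 4 UMIs and levels of 125, 104, 33.5 and 28.4 CPM. CLN3 rested on the Control male alone, with 556 UMIs there and 14, 15 and 4 in the others, and it was also higher in the other barcodes of that library, at 120 CPM against 22.0 to 26.6 CPM. TTC7A had 22, 45, 13 and 2 UMIs and PIP5K1C had 20, 52, 11 and 4, both highest in the Control male.

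In the 309 members, the 5 genes of smallest p with higher LPS values were ENPP6, AGT, MBP, BCAS1 and PAX6, which are genes of oligodendrocytes, astrocytes and granule cells. The 5 with lower LPS values were PROCR, FLT1, FN1, KDR and TRPC5, of which FLT1 and KDR are receptors of endothelial cells. MBP, a myelin protein, was at 81.3 and 17.9 CPM in Control and 138 and 647 CPM in LPS, with 171 to 517 CPM in the other barcodes. The 7 oligodendrocyte markers in the table summed to 316, 169, 505 and 919 CPM in the members of the Control female, Control male, LPS female and LPS male, and the 6 endothelial and mural markers to 94.8, 66.6, 26.3 and 13.5 CPM, and their part in these values was not tested. FLT1 had 64, 17, 4 and 3 UMIs in 3, 2, 4 and 3 barcodes, so a few barcodes gave most of it. None passed (edgeR adjusted p = 1.00). The 3-marker barcodes were 78 of 104 members in the Control female, 12 of 57 in the Control male, 69 of 93 in the LPS female and 39 of 55 in the LPS male, so the Control male had the smallest part of them.

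By list, no gene of any list was called in either set. In Purkinje-like nuclei 6 of 18 tested Purkinje markers outside the rule had a positive LPS fold change, with a median log2 value of -0.09, against 2955 of 6237 and -0.02 for all genes tested. For calcium release and buffering it was 9 of 24 and -0.12, and for the parallel and climbing fibre synapse 9 of 24 and -0.15. ITPR1 had a log2 fold change of -0.14, with 12418 to 13960 CPM over the 4 fetuses. Granule cell markers had 5 of 5 positive with a median of 1.49, which was 0.52 over nuclei with 10 or more ITPR1 UMIs, 0.91 without doublets, 0.34 without the LPS male and 2.53 without the LPS female, and 3 of the 5 had an unadjusted edgeR p under 0.05, beside the sums given above for the LPS male. Of 22 genes of the inflammatory response, 2 had enough counts to be tested, NFKB1 at 67.6, 66.6, 96.0 and 56.7 CPM and STAT3 at 24.9, 104, 58.1 and 35.4 CPM. TLR4, the LPS receptor, had 0 UMIs in the Purkinje-like nuclei of all 4 fetuses, which allows up to 3 in each sum.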

How the data were processed

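Nuclei of flash-frozen cerebellum were sequenced by 10x Genomics 3' chemistry in 4 libraries, 1 per fetus. The authors aligned reads to the rhesus genome Mmul 8.0.1 with Cell Ranger (5.0 in the protocol, 4 in the file headers), introns included, and deposited unfiltered UMI count matrices of 30807 features. Barcodes with 500 or more genes were kept, no free RNA was removed, and doublets called by Scrublet were kept. In the LPS male its threshold was replaced by the median of the other libraries. UMIs were summed per fetus and set. Sums of members and other barcodes were compared as log2(CPM + 1), with no test. LPS and Control sums were tested with edgeR 4.0.16 (R 4.3.3, quasi-likelihood, Benjamini-Hochberg adjustment), with DESeq2 1.42.0 as an alternative. Shares used the exact permutation test. The edgeR step was tested on simulated data. Named genes were the listed genes the text counts, the 20 genes outside the rule with the largest smallest-of-4-fetuses difference between all members and the other barcodes, the 10 with the most negative largest difference, the 5 of smallest p in each direction, SHH, and the 10 of largest residual variance. The members and lists were chosen with earlier results of these data known. The Purkinje-like set and its alternatives were chosen after seeing the data. Alternatives were other rules, filters, scalings, doublets or free RNA removed, a replicate block by sex, and each library left out. With 1 library per fetus, p-values measure the spread between fetuses, which in the main fit includes the difference between female and male libraries. A few genes that these rules name are not reported here.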

Additional observations from a re-analysis of the deposited data

Results flagged for a closer look

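In Purkinje-like nuclei 5 values moved in opposite directions in the female and the male pair of fetuses. Each pair is 1 LPS fetus against 1 Control fetus, the difference between the pairs was not tested, and 52.7% of the 6237 genes tested (3290) also had opposite signs in the pairs. The share of barcodes was 0.0667 percentage points higher in the LPS female and 0.317 points lower in the LPS male (a difference of -0.317). The median UMI count differed by -6582 in the females and by 1722.5 in the males. CLN3, a lysosomal membrane protein, had log2 differences of 0.30 and -5.86, which rest on 556 UMIs in the Control male, where the other barcodes were also higher (120 CPM against 22.0 to 26.6 CPM). PPP1R17 had -3.19 and 2.25, and CASR had 4.17 and -6.13.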

How the results depend on the processing

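The share of members, LPS minus Control, turned from 0.133 to -0.125 points with 4 or more rule genes, -0.110 with 5 or more, -0.115 without FOXP2 in the rule and -0.0437 with barcodes thinned to 1000 UMIs, and ran from -0.188 to 0.454 with 1 library left out. For Purkinje-like nuclei, whose alternatives were chosen after seeing the data, the share difference was 0.0667 points within females and -0.246 to -0.00461 with 1 library left out. It was -0.0534 points with barcodes thinned to 1000 UMIs. Their difference in median UMIs was 1722.5 within males and -10951 to 6091.5 with 1 library left out. With no filter on low counts edgeR called 11 genes in the members and 5 in the Purkinje-like nuclei, and with 1 library left out 0 to 366 and 2 to 24. With the replicate block by sex it called 0 in both. The labels' shared numbers mark no shared animal or day, and the block changed no call. The log2 fold change of CLN3 ran from -5.55 to 0.17 with 1 library left out, and turned without Control replicate 2. Genes 4-fold higher in members numbered 200, 216 and 199 with 4 or more rule genes, 5 or more and without FOXP2, 55 with 10 CPM added, and 96 to 169 with 1 library left out. Genes 4-fold lower numbered 138, 339 and 112 with those rules, 12 without doublets, 0 with 10 CPM added, 49 against other inhibitory barcodes, 35 with free RNA subtracted, and 1 to 20 with 1 library left out. In Purkinje-like nuclei they numbered 281 without doublets, 331 with 10 or more ITPR1 UMIs besides, 70 with 10 CPM added, and 150 to 400 with 1 library left out. The causes were not tested. There were 16 to 45 Purkinje-like nuclei per fetus, and genes of low counts such as SHH did not enter the test.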

Other observations

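Outside the rule, 16 barcodes had 10 or more ITPR1 UMIs, 5 in each Control fetus, 2 in the LPS female and 4 in the LPS male.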
